A study of Homo sapiens with 6 samples.

Results

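The proteasome genes described here are the 44 rows of the count table whose symbols follow the PSMA to PSMG naming with a number, out of 25370 rows. The inducible catalytic subunits PSMB8, PSMB9 and PSMB10 and the thymic subunit PSMB11 were left aside, and all 44 are annotated as protein-coding. The 44 genes comprise 15 of the 20S core (PSMA and PSMB), 20 of the 19S particle (PSMC and PSMD) and 9 activators, an inhibitor and assembly chaperones (PSME, PSMF and PSMG). The choice used symbols only, and no measured value, although earlier results of these data were known when it was made.

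RNA came from human neuroblastoma lines, and 6 libraries were sequenced. Be2C cells with forced expression of LMO1 gave 2 libraries and Be2C cells carrying a vector control gave 2. A single library each came from unmodified (parental) Be2C and from Kelly, and both lines are known to carry an amplified MYCN gene, so every group has it. LMO1 is a LIM-only co-regulator of transcription, and the study asks how it works alongside MYCN. The labels name neither the promoter that drove LMO1 nor whether the cells were a pool or a clone. Nothing in them ties the 2 libraries of a group to independent cultures. The p-values therefore reflect library-to-library spread, and that spread may be purely technical.

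The proteasome is the protease that degrades most short-lived and misfolded proteins after they have been tagged with ubiquitin. Its 20S core is a barrel of alpha and beta rings, in which PSMB5, PSMB6 and PSMB7 carry the proteolytic sites. The 19S particle caps the barrel: its base unfolds substrates with the PSMC ATPases, and its lid removes ubiquitin through PSMD14. PSME proteins are alternative caps, PSMF1 binds the core as a regulator, and PSMG proteins, PSMD5, PSMD9 and PSMD10 are chaperones that help to assemble the particles and are not part of the finished enzyme. Proteasome genes are known to share control by the factor NFE2L1 (also called NRF1), which binds antioxidant response elements in their promoters and is released when proteasome activity is low. Neuroblastoma cells that make much MYCN produce protein at a high rate, and proteasome inhibitors kill such cells in culture.

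Depth ran from 18737591 counts in an LMO1 library to 59512958 in the Kelly library, with 48663459 in the parental library and at most 25070942 in the 4 modified ones. Levels are given as CPM, the count of a gene relative to the library total, scaled by TMM over all libraries. LMO1 itself was at 6.55 and 5.85 CPM in the LMO1 libraries, 1.05 and 0.926 CPM with vector, 1.93 CPM in parental Be2C and 94.1 CPM in Kelly. It was higher in both LMO1 libraries than in both vector libraries (log2 fold change 2.65, SE 0.27, edgeR adjusted p = 3.46e-11), and Kelly stood far above both. MYCN was at 1636 and 1558 CPM, 1651 and 1666 CPM, 1612 CPM and 2066 CPM in the same order (-0.05, edgeR adjusted p = 0.122). Both LMO1 libraries lay below both vector libraries for MYCN. The result of no call held in 9 of 12 alternative fits, with values from -0.09 to -0.01. All 10 neuroblastoma markers examined were present, with a summed level of 6498 to 7113 CPM, most of it from CHGA and MYCN. With LMO1 4 of the 10 were higher, DBH (by 2.57 on the log2 scale) and TH (by 1.84) among them, and 4 were lower, HAND2 (-0.17) and GATA3 (-0.23) among them. Summed markers of fibroblast or endothelial, haematopoietic, and Schwann or melanocytic cells reached 141 (parental), 1.41 (vector) and 33.4 CPM (Kelly) at most. In such bulk RNA, fewer cells of a kind and less RNA per cell cannot be told apart.

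Promoter sequence was examined first, because a shared element is what is known to tie these genes together. Windows from 250 bases before to 50 after the start of transcription (RefSeq, GRCh38.p14) were given for 38 of the 44 genes, in 46 windows. The letters TGACNNNGC, the core of the antioxidant response element, were searched on both strands and were present for 14 of 38 genes (36.8%), against 16.1% of all 27305 genes with a window. The NF-Y box CCAAT was present for 18 (47.4%, against 39.7%) and the E-box CACGTG, which MYC proteins can bind, for 3 (7.89%, against 8.77%). The stretches below are examples that hold the antioxidant response letters, in capitals, upstream of the start, on the strand of the gene. They lie at chr15:78540645-78540683 (plus strand, PSMA4), chr17:38752622-38752660 (plus, PSMB3), chr17:39980755-39980793 (plus, PSMD3), chr17:67366719-67366757 (minus, PSMD12) and chr2:53971004-53971042 (minus, PSME4). In PSME4 the letters read on the opposite strand. Other genes with upstream matches, PSME1 and PSME2 among them, are not shown.
PSMA4: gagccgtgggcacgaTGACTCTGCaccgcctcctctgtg
PSMB3: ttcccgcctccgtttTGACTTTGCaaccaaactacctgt
PSMD3: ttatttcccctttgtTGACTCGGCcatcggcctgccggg
PSMD12: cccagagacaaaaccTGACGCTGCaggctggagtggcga
PSME4: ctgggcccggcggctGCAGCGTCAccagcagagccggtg

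Forced LMO1 went with slightly lower proteasome RNA. Of the 43 genes with reads, all of which passed the low-count filter, 17 were lower in LMO1 than in vector cells (edgeR adjusted p below 0.05, adjusted over all 15480 genes tested) and 0 were higher in edgeR, DESeq2 or limma-voom. At an unadjusted p below 0.05 in edgeR, 3 had positive values (PSMD10, PSME1 and PSME2). Among all genes tested, 15.1% were lower and 15.9% higher. The members' median log2 fold change was -0.11, against 0.00 for all genes. A negative value was found in 38 of the 43, against 49.9% of all genes tested. The largest fall among them was 0.34 on the log2 scale, a 20.8% lower level, reached by PSMB1. Both LMO1 libraries lay below both vector libraries for 32 of the 43 genes, against 5022 of all 15480 genes tested (32.4%). In these libraries the summed fibroblast or endothelial markers were at 66.5 to 66.7 CPM with LMO1 and 55.4 to 60.5 CPM with vector (3 of 6 tested higher, 2 lower), and the Schwann or melanocytic markers at 13.4 to 14.5 and 18.1 to 18.5 CPM (1 of 3 lower). Of the 6 haematopoietic markers 2 had no read in any library. The part of these cell types, and of the neuroblastoma markers that changed, in the result was not tested. In PSMD10, PSME1 and PSME2 both LMO1 libraries lay above both vector libraries, and the share of all genes that did so was not computed. With total-count scaling the split was 15 lower and 2 higher, the 2 being PSME1 and PSME2, and 12% of all genes tested were lower. Without vector replicate 2 the members' median log2 fold change was -0.08, and some calls were lost. DESeq2 called 12 lower, losing PSMA1, PSMB5, PSMC4, PSME3 and PSME4, and called 9.24% of all genes lower.

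**Figure D1:**
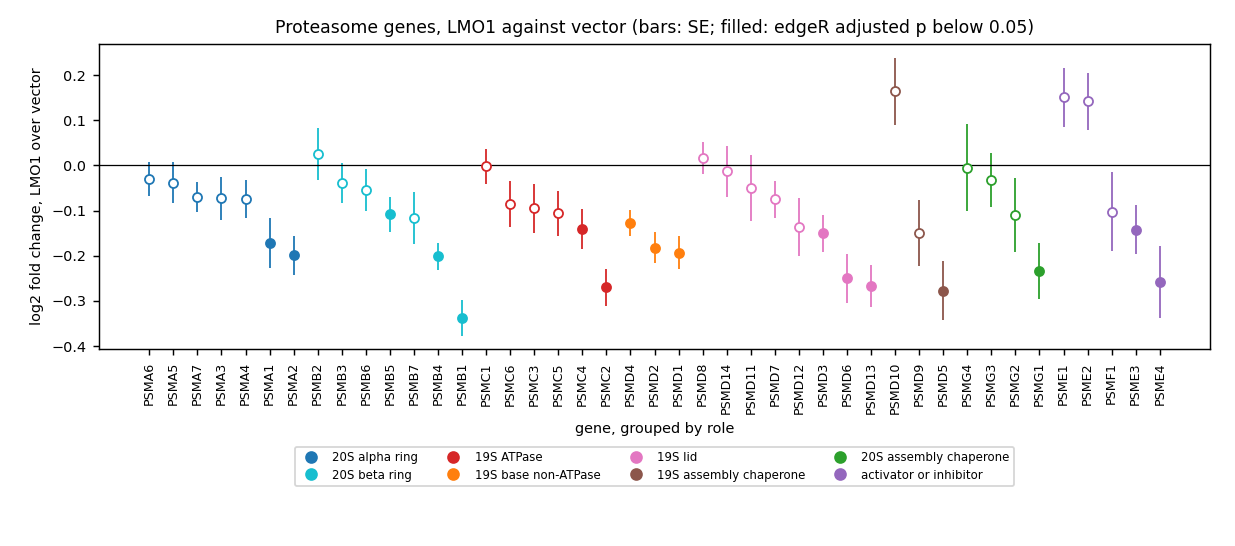
Log2 fold change of LMO1 over vector (vertical axis) for the 43 proteasome genes with reads, grouped by role; bars are the SE of the edgeR fit, and filled points have an edgeR adjusted p below 0.05. The 17 filled points all lie below 0, and PSMD10, PSME1 and PSME2 are the highest of the open ones.

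By particle, 5 of 14 tested genes of the 20S core were lower, 9 of 20 of the 19S particle and 3 of the 9 remaining. Their medians were -0.07, -0.13 and -0.10 on the log2 scale. Whether the particles differ from each other was not tested. Genes whose windows held the antioxidant response letters were lower in 6 of 14 cases, with a median of -0.14, and those without in 9 of 23, with a median of -0.09. The difference between these medians was not tested.

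In the alpha ring, which gates entry to the core, 2 of 7 tested genes were lower. PSMA2 was at 126 and 132 CPM in the LMO1 libraries and at 153 and 145 CPM in the vector libraries, which do not overlap. It fell by 0.20 (SE 0.0429, edgeR adjusted p = 0.00026). PSMA1 was at 67.0 and 68.1 CPM against 76.2 and 76.7 CPM, and fell by 0.17 (edgeR adjusted p = 0.0156). That call was lost without any one of the 4 libraries, with adjusted p from 0.0661 to 0.116 in edgeR. PSMA3, PSMA4, PSMA5, PSMA6 and PSMA7 had values between -0.07 and -0.03 and were not called. PSMA8, the alpha subunit of germ cells, had no read in any library, which allows at most 0.0503 CPM in Kelly and 0.157 CPM in the shallowest library.

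In the beta ring, 3 of 7 genes were lower, and the only gene of all 43 with a fall beyond 0.30 was found here. PSMB1, a structural beta subunit without a proteolytic site, measured 180 and 201 CPM under LMO1 and 236 and 248 CPM under vector. The lower vector value exceeded the higher LMO1 value by more than either group's SD (15.1 and 9.13 CPM). PSMB1 fell by 0.34 (SE 0.0398, edgeR adjusted p = 2.03e-09). PSMB4, also without a proteolytic site, was at 438 and 459 CPM against 524 and 512 CPM. It fell by 0.20 (SE 0.0293, edgeR adjusted p = 2.86e-07), and both genes kept their call under all 12 alternatives tried.

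Of the 3 proteolytic subunits 1 was called. PSMB5, which cuts after hydrophobic residues and is the main target of bortezomib, measured 176 and 171 CPM under LMO1 and 182 and 194 CPM under vector. It fell by 0.11 (SE 0.0391, edgeR adjusted p = 0.0306), and the call was lost in 6 of the 12 alternatives, with a value of -0.06 without vector replicate 2. PSMB6, the caspase-like subunit, was at 102 and 109 CPM against 110 and 110 CPM (log2 fold change -0.05, edgeR adjusted p = 0.417). PSMB7, the trypsin-like subunit, was at 64.8 and 69.3 CPM against 72.2 and 73.9 CPM (-0.12, edgeR adjusted p = 0.126). PSMB2 and PSMB3 had log2 fold changes of 0.03 and -0.04, and their libraries overlapped.

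Of the 6 ATPases that drive unfolding, 2 were lower. PSMC2 measured 136 and 140 CPM under LMO1 and 166 and 168 CPM under vector. These groups do not overlap, and PSMC2 fell by 0.27 (SE 0.0403, edgeR adjusted p = 4.92e-07). PSMC4 was at 113 and 111 CPM against 123 and 125 CPM and fell by 0.14 (edgeR adjusted p = 0.0128), a call lost without LMO1 replicate 1, LMO1 replicate 2 or vector replicate 2 (adjusted p = 0.0612, 0.145 and 0.123 in edgeR) and in DESeq2 (adjusted p = 0.0702). PSMC1, PSMC3, PSMC5 and PSMC6 ranged from 0.00 to -0.11 and were not called.

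All 3 other subunits of the base were lower. PSMD1, a large scaffold subunit, was at 191 and 201 CPM against 224 and 226 CPM and fell by 0.19 (SE 0.0363, edgeR adjusted p = 3.46e-05). PSMD2, the neighbouring scaffold that docks ubiquitin shuttles and USP14, was at 214 and 218 CPM against 247 and 246 CPM and fell by 0.18 (edgeR adjusted p = 4.39e-05). PSMD4, a ubiquitin receptor, was at 414 and 427 CPM against 455 and 468 CPM and fell by 0.13 (edgeR adjusted p = 0.000643). In each of the 3 genes the LMO1 libraries stood below the vector libraries.

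In the lid, 3 of 8 genes were lower. PSMD13 measured 95.04 and 97.4 CPM under LMO1 and 115 and 118 CPM under vector, and fell by 0.27 (SE 0.0468, edgeR adjusted p = 1.12e-05). PSMD6 was at 72.1 and 70.0 CPM against 85.2 and 84.4 CPM and fell by 0.25 (SE 0.054, edgeR adjusted p = 0.00027). PSMD3 was at 136 and 136 CPM against 153 and 151 CPM and fell by 0.15 (edgeR adjusted p = 0.00379), with an adjusted p of 0.0559 without vector replicate 1. PSMD14, the deubiquitinase of the lid, had a log2 fold change of -0.01 (edgeR adjusted p = 0.888), and its libraries overlapped. PSMD7, PSMD8, PSMD11 and PSMD12 ranged from -0.14 to 0.02 and were not called.

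Among chaperones of assembly, PSMD5 measured 49.1 and 50.4 CPM under LMO1 and 63.2 and 58.0 CPM under vector, and fell by 0.28 (SE 0.0653, edgeR adjusted p = 0.000773). PSMG1, which pairs with PSMG2 to build the alpha ring, was at 62.4 and 63.3 CPM against 68.3 and 80.1 CPM and fell by 0.23 (edgeR adjusted p = 0.00286). That value was set largely by vector replicate 2, since without it the value was -0.12 (edgeR adjusted p = 0.312), and without LMO1 replicate 1 the adjusted p was 0.0644. PSMD9, PSMG2, PSMG3 and PSMG4 had log2 fold changes from -0.15 to 0.00 and were not called. PSMD10, also known as gankyrin, was at 40.9 and 39.9 CPM against 35.4 and 36.9 CPM (0.16, edgeR adjusted p = 0.0934).

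Of 5 activator or inhibitor genes, 2 were lower. PSME4, which encodes the large cap PA200, measured 32.6 and 31.3 CPM under LMO1 and 36.8 and 39.8 CPM under vector, and fell by 0.26 (SE 0.0787, edgeR adjusted p = 0.00957). Without LMO1 replicate 2 and without vector replicate 2 the adjusted p was 0.0563 and 0.142 in edgeR. PSME3, the nuclear cap subunit, was at 71.7 and 72.3 CPM against 79.0 and 80.5 CPM and fell by 0.14 (edgeR adjusted p = 0.042). That call was kept in 4 of the 12 alternatives, and no leave-one-out fit kept it. The PSME3 call was also lost with total-count scaling, without the low-count filter, with a filter of 5 CPM in 2 libraries and in DESeq2. PSME1 and PSME2, the interferon-inducible pair that forms the other cap, did not pass the threshold, although both LMO1 libraries lay above both vector libraries. PSME1 was at 54.3 and 55.5 CPM against 47.8 and 51.4 CPM (0.15, edgeR adjusted p = 0.0773). PSME2 was at 58.8 and 63.2 CPM against 55.2 and 56.0 CPM (0.14, edgeR adjusted p = 0.0814).

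The inducible counterparts of the proteolytic subunits are low in these cells. PSMB8, which replaces PSMB5 in the immunoproteasome, had 117 and 112 counts with LMO1 and 15 and 17 with vector. PSMB8 rose by 3.003 on the log2 scale (SE 0.305, edgeR adjusted p = 3.2e-11), from 0.686 ± 0.00221 to 5.53 ± 0.846 CPM (SD, n = 2 each). At its LMO1 level PSMB8 remained far below PSMB5, which was at 174 ± 3.501 CPM. PSMB8 had 38 counts in the parental library and 2 in Kelly. PSMB9 had 0 and 11 counts with LMO1, 2 and 0 with vector, 8 in parental cells and 0 in Kelly, and was too low to test. PSMB10 was at 11.7 ± 0.295 CPM against 12.6 ± 0.307 CPM (-0.10, edgeR adjusted p = 0.598).

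The summed level of all 44 genes restates the same values by library and is not separate support. It was 5036 and 5165 CPM in the LMO1 libraries, 5538 and 5611 CPM with vector, 4481 CPM in parental Be2C and 3912 CPM in Kelly. The LMO1 sums lay 8.50% below the vector sums on average, and the groups did not overlap. The parental library lay below all 4 modified libraries, a single library against 4. For the 20S core the sums were 2145 and 2216 CPM, 2384 and 2406 CPM, 1712 CPM and 1434 CPM in the same order. The 9 activators, inhibitor and 20S chaperones ran in another order, with 423 and 426 CPM, 436 and 457 CPM, 549 CPM and 594 CPM.

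**Figure D2:**
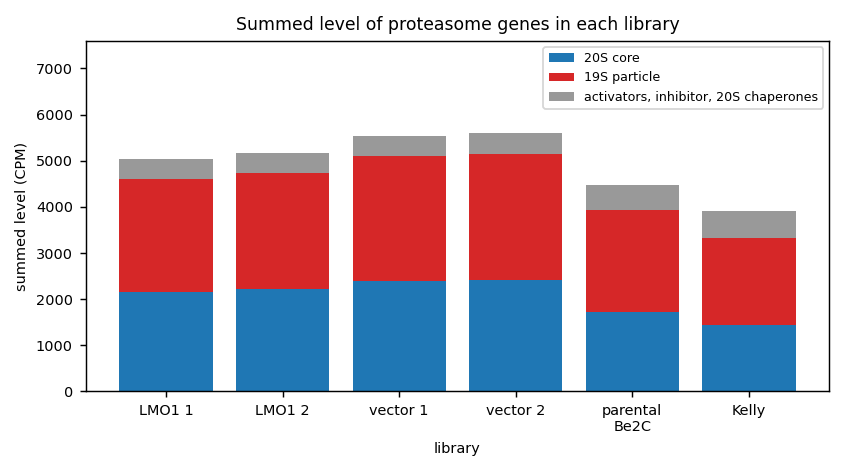
Summed level of the proteasome genes in CPM (vertical axis, from 0) in each of the 6 libraries, stacked by the 20S core, the 19S particle and the remaining 9 genes. The vector bars are the tallest at 5538 and 5611 CPM and the Kelly bar the lowest at 3912 CPM, and the grey part is largest in Kelly at 594 CPM.

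To place the vector control, its mean was compared with unmodified Be2C. The labels name no batch, so a difference in handling or sequencing between these libraries cannot be told apart from carrying the vector. With 1 parental library there is no replicate check and no test, and ratios are of CPM with 1 added, while printed folds are of plain CPM. Parental cells were lower by 1.5-fold or more in 8 of 43 genes, against 7.90% of all 11727 genes with 5 CPM or more, and 3 were at least 1.5-fold higher, against 19%. The median log2 ratio of the 43 genes was -0.33, and 0.05 for all genes. This comparison shares its vector libraries with the LMO1 comparison. With median-ratio size factors, 13 genes were at least 1.5-fold lower, and the share of all genes under that scaling is not given here. The summed fibroblast or endothelial markers were at 141 CPM in the parental library and at 55.4 to 60.5 CPM with vector, and DCN alone was at 102 CPM against 18.8 and 20.9 CPM. Their part in the ratio was not tested.

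Core subunits led the lower side. PSMB3, a structural beta subunit, was at 67.3 CPM in the parental library and at 121 and 124 CPM with vector, 122 and 116 CPM with LMO1 and 39.6 CPM in Kelly, 1.82-fold more with vector (95% interval 1.74 to 1.90, counting error only). PSMB6 was at 63.5 CPM against 110 and 110 CPM, 1.73-fold more with vector. PSMG3, a 20S chaperone, was at 38.3 CPM against 66.1 and 63.4 CPM, 1.69-fold more with vector, with 64.1 and 61.9 CPM in the LMO1 libraries and 28.3 CPM in Kelly. In the 20S core 12 of 14 genes were below the vector mean in the parental library, and the share of all genes below it is not given here.

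The higher side was led by activators. PSME4 was at 91.95 CPM in the parental library and at 36.8 and 39.8 CPM with vector, 2.40-fold more in parental cells (95% interval 2.27 to 2.53). PSME3 was at 184 CPM against 79.0 and 80.5 CPM, 2.30-fold more (2.22 to 2.39). PSMD12, a lid subunit, was at 89.96 CPM against 56.8 and 59.7 CPM, 1.54-fold more, with 54.6 and 51.1 CPM in the LMO1 libraries and 130 CPM in Kelly. These 3 were all the members past 1.5-fold on the higher side.

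In the single libraries the other members lower with LMO1 stood as follows. PSMA1 was at 68.4 CPM in parental Be2C and 50.9 CPM in Kelly, and PSMB1 at 162 and 139 CPM. PSMC4 was at 93.6 and 87.7 CPM, PSMD2 at 222 and 208 CPM, PSMD3 at 127 and 81.6 CPM, and PSMD4 at 311 and 214 CPM. All of these were lower in Kelly than in parental cells. PSMD5 was at 79.7 and 65.7 CPM, PSMD6 at 71.1 and 44.9 CPM, PSMD13 at 111 and 86.9 CPM, and PSMG1 at 66.1 and 43.0 CPM. PSME3 was at 184 and 189 CPM, nearly equal in both lines. Of these 11 genes PSMD5 and PSME3 lay above both vector libraries in parental cells.

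Transcript length moved with this ratio. Across the 43 genes the Spearman correlation between the length of the longest transcript and the parental to vector ratio was 0.38, close to the 0.34 across 11067 genes of the table. With coding length it was 0.36, against 0.23 for all genes. With the longest coding transcript, a length added after the data were seen, it was 0.53, against 0.35. The GC content of the longest transcript had a correlation of -0.39 in the 43 genes and -0.03 in all genes. The points share the same 3 libraries. Among 22 genes with coding transcripts of up to 1670 bases the median log2 ratio was -0.48 and 3 were positive, and among the 21 longer ones it was -0.15 and 7 were positive. For the LMO1 to vector fold change the correlation depended on the length used: it was -0.11 with the longest transcript, -0.07 with the longest coding transcript and -0.48 with coding length, where all genes had -0.07. Genes with longer coding sequences thus tended to have lower LMO1 to vector values, and the part of coding length in that comparison was not tested. For Kelly to parental the 3 lengths gave 0.19, 0.17 and 0.08. The parental library was also sequenced more deeply than the vector libraries. The part of length, GC content and depth in the parental to vector ratio was not tested.

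**Figure D3:**
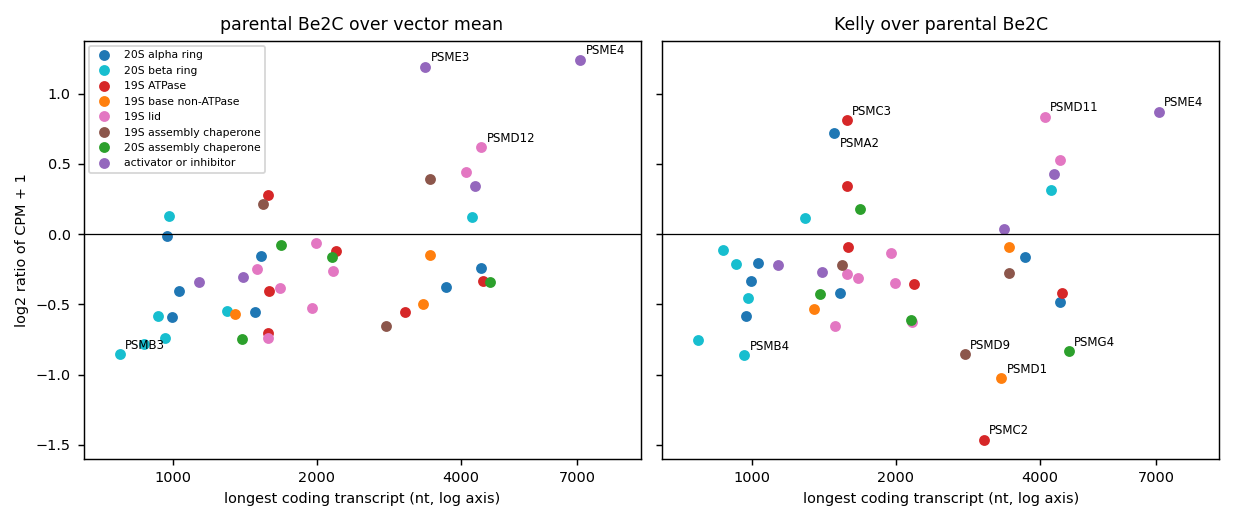
Log2 ratio of CPM + 1 (vertical axis) against the length of the longest coding transcript in nucleotides (log axis) for the 43 proteasome genes, for parental Be2C over the vector mean (left) and Kelly over parental Be2C (right), coloured by role. On the left PSME3 and PSME4 stand above 1 and PSMB3 is the lowest at -0.85, and on the right PSMC2 is the lowest at -1.46.

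Kelly cells were compared with parental Be2C, again with 1 library on each side and no test. Of the 43 genes, 9 were at least 1.5-fold lower in Kelly, against 24.5% of 12387 genes, and 4 were at least 1.5-fold higher, against 25.5%. The lower count is near the share of all genes and the higher one is below it. The median log2 ratio was -0.28, against -0.03 for all genes. Of the 43 genes 32 were negative, and the share of all genes that were negative is not given here, so this count has no background. The comparison shares the parental library with the one before it.

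Kelly was lowest in a mixed group of subunits. PSMC2, an ATPase, was at 40.4 CPM in Kelly and at 113 CPM in parental cells, 2.80-fold lower in Kelly (95% interval 2.67 to 2.94, counting error only). PSMD1 was at 77.6 CPM against 159 CPM, 2.05-fold lower (1.98 to 2.13). PSMB4 was at 170 CPM against 310 CPM, 1.82-fold lower. PSMC2 and PSMD1 were the only members past 2-fold in either direction.

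On the higher side, PSME4 was at 169 CPM in Kelly and at 91.95 CPM in parental cells, 1.84-fold higher (95% interval 1.78 to 1.91). PSMD11, a lid subunit, was at 124 CPM against 68.7 CPM, 1.80-fold higher, with 45.7 and 50.9 CPM under LMO1 and 46.1 and 54.3 CPM under vector. PSMC3, an ATPase, was at 88.9 CPM against 50.3 CPM, 1.77-fold higher, with 74.8 and 79.0 CPM under LMO1 and 84.1 and 81.2 CPM under vector. PSMA2, of the alpha ring, was at 168 CPM against 102 CPM, 1.65-fold higher. The ATPases PSMC2 and PSMC3 belong to the same ring of the base and lay on opposite sides.

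The proteolytic subunits stayed under that fold. PSMB5 was at 139 CPM in Kelly and at 128 CPM in parental cells. PSMB6 was at 58.6 CPM against 63.5 CPM, and PSMB7 at 58.2 CPM against 80.1 CPM. PSMB5 was the higher one in Kelly, and PSMB6 and PSMB7 were the lower ones, in single libraries without a replicate check.

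**Figure D4:**
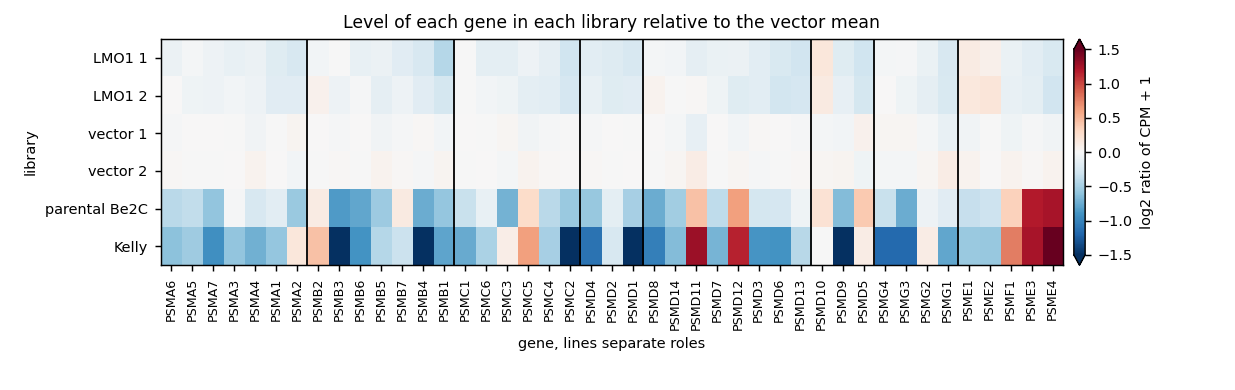
Log2 ratio of CPM + 1 to the vector mean (colour, from -1.5 to 1.5, arrows for values beyond) for the 43 proteasome genes in each of the 6 libraries, with lines between roles. The 4 modified libraries are pale, while parental Be2C and Kelly are blue in most core and 19S genes and red in PSME3, PSME4, PSMD11 and PSMD12.

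Levels can be compared between genes only per length. Levels per kilobase of the longest annotated transcript were averaged over the 6 libraries for each gene. The median over genes was 75.1 CPM per kb for the 20S core and 43.3 for the 19S particle. The longest transcript of several members is not a coding one, so the coding length was used as well. On that scale the medians were 166 and 77.6 CPM per coding kb, and the 20S core remained above the 19S particle. PSMB4 was highest with a vector mean of 654, followed by PSMD4 with 405, PSMA7 with 355 and PSMB1 with 335 CPM per coding kb. Among genes with reads PSME4 was lowest on that scale, with 6.93 in vector and 16.6 in parental cells. The order depended on the length and library used. Per kb of the longest transcript the vector means were led by PSMD4 (342), PSMA7 (258) and PSMB4 (251), and in Kelly PSMA2 led per coding kb (239). The 3 proteolytic subunits were at 238 (PSMB5), 154 (PSMB6) and 87.9 (PSMB7) CPM per coding kb with vector, although the core holds them in equal number. These are RNA levels and give no measure of protein.

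**Figure D5:**
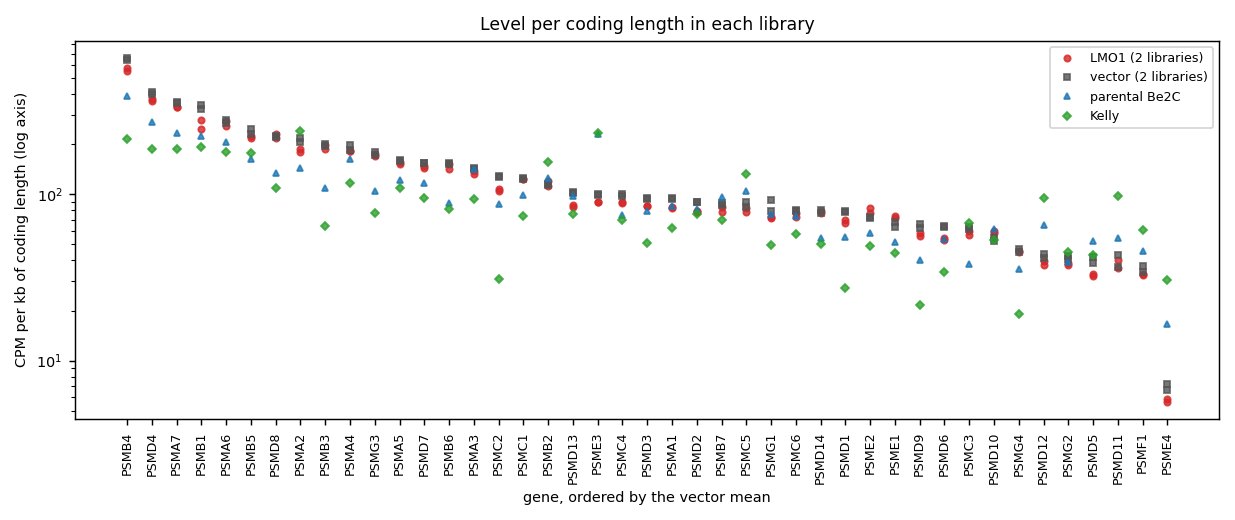
Level in CPM per kilobase of coding length (log axis) of the 43 proteasome genes in each of the 6 libraries, ordered by the vector mean. PSMB4 leads with a vector mean of 654 and PSME4 is lowest at 6.93, and in PSMC2 and PSMD1 the Kelly point lies below all others.

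Regulators of proteasome genes were read beside them. Over all genes tested 15.1% were lower and 15.9% higher with LMO1, and the counts of the lists that follow stand beside those shares. Of 13 regulators tested, 1 was higher and 5 were lower. NFE2L1 measured 533 and 536 CPM under LMO1 and 525 and 523 CPM under vector (log2 fold change 0.04, edgeR adjusted p = 0.346). NFE2L2, its relative in the oxidative stress response, was at 48.1 and 51.2 CPM against 61.0 and 61.5 CPM and fell by 0.29 (SE 0.0642, edgeR adjusted p = 0.000292). MAFG, a small partner with which both bind DNA, fell by 0.47 (edgeR adjusted p = 9.64e-08). Of the other small partners, MAFF rose by 0.67 (edgeR adjusted p = 0.0199), at 4.87 against 3.07 CPM. MAFK had a value of 0.44 and was not called (edgeR adjusted p = 0.469). KEAP1, which marks NFE2L2 for degradation, fell by 0.34 (edgeR adjusted p = 3.72e-07), and BACH1, a repressor at the same elements, by 0.25 (edgeR adjusted p = 0.000948).

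Of 16 factors associated with the proteasome 4 passed the test, all of them lower, and 2 had positive values at an unadjusted p below 0.05 in edgeR. The lower ones include UBQLN4 and UBQLN1, which carry ubiquitinated proteins to the 19S particle, and ZFAND5. UBQLN4 fell by 0.22 (SE 0.0434, edgeR adjusted p = 7.36e-05). The call of ZFAND5 (edgeR adjusted p = 0.0445) was lost in 7 of 12 alternatives, with a value of -0.06 without vector replicate 1. POMP, the maturation factor of the 20S core, was at 50.0 ± 3.003 CPM against 56.0 ± 1.202 CPM (-0.15, edgeR adjusted p = 0.0697). Of 6 ubiquitin and E1 genes 5 passed the test, all of them lower, and 0 had a positive value at an unadjusted p below 0.05 in edgeR. They include RPS27A (fell by 0.22, edgeR adjusted p = 9.52e-08), UBB (by 0.16) and the E1 enzyme UBA1 (by 0.16). UBB had a value of -0.25 without LMO1 replicate 1 and -0.08 without LMO1 replicate 2, called in both, and was not called in DESeq2 (adjusted p = 0.19).

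VCP, the p97 segregase that extracts proteins for degradation, fell by 0.24 (SE 0.0342, edgeR adjusted p = 1.2e-07). Its list of 13 held 4 lower genes, NPLOC4 (by 0.16, edgeR adjusted p = 0.00427) and UBXN1 (by 0.26, edgeR adjusted p = 0.00848) among them, and 1 higher, SEL1L of the endoplasmic reticulum degradation pathway, which rose by 0.33 (edgeR adjusted p = 5.99e-09). The NPLOC4 call was lost without LMO1 replicate 1 and without vector replicate 2 (adjusted p = 0.0752 and 0.133 in edgeR). The UBXN1 call was lost in DESeq2 (adjusted p = 0.0647), without LMO1 replicate 2 (0.0513) and without vector replicate 2, where its value was -0.16 (0.279). Of 13 stress chaperones 3 rose and 5 fell. HSPA1A, the heat-inducible HSP70, rose by 0.96 (SE 0.115, edgeR adjusted p = 2.79e-09), while the constitutive HSPA8 fell by 0.23 (edgeR adjusted p = 1.46e-12), HSPH1 by 0.28 and the co-chaperone DNAJA1 by 0.25. HSPA1A has the near-identical copy HSPA1B, so its reads are uncertain. Among 25 E2 enzymes, which conjugate ubiquitin, 4 rose and 5 fell, near the shares of all genes. UBE2V2 rose by 0.29, UBE2E1 by 0.28 and UBE2D2 by 0.21, and UBE2G2 fell by 0.16. The UBE2D2 call was lost without LMO1 replicate 2 (edgeR adjusted p = 0.073). The UBE2G2 call was lost in DESeq2 (adjusted p = 0.0942), without LMO1 replicate 2 (value -0.08) and without vector replicate 2 (value -0.11), and its value was -0.24 without LMO1 replicate 1.

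A pair of factors that act on the 19S particle, chosen after their values were seen, differed widely between libraries. USP14, a deubiquitinase of the particle, averaged 16.9 ± 1.06 CPM under LMO1 and 17.1 ± 1.55 CPM under vector (SD, n = 2 each), and was at 106 CPM in parental Be2C and 173 CPM in Kelly. KIAA0368, which encodes the adaptor ECM29, was at 177 CPM in parental Be2C and 16.3 CPM in Kelly. Neither was called with LMO1 (edgeR adjusted p = 0.942 and 0.226).

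Reads of some members could belong to neighbours. In GENCODE 29, exons of 13 members overlap a gene of the table on the opposite strand, among them PSMD1, PSMD6, PSMD13, PSME3 and PSME4, and exons of 2 overlap one on the same strand, PSMD9 being one of them. The kit keeps strand, but the strand setting of the counting is not given in the sources used here, so such reads cannot be told apart. A further source of shared reads is pseudogenes, which 12 members have by name, with 13 for PSMC1.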

How the data were processed

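Members and gene lists were chosen with earlier results of these data known. The authors deposited unnormalised read counts for each gene symbol and library. TopHat2 2.0.6, HTSeq and hg19 are named in the submitters' processing notes, and annotation, strand setting and filters are not given in the sources used here. Here, LMO1 and vector libraries (2 each) were compared with edgeR 4.0.16 (R 4.3.3): TMM scaling, filterByExpr (15480 of 25370 rows kept), quasi-likelihood F test and Benjamini-Hochberg adjustment over all genes tested. The SE is the log2 fold change divided by the root of F. Replicate libraries differed by more than sampling noise, with chi-square over its degrees of freedom at 2.84 (LMO1) and 2.70 (vector). CPM values were TMM-scaled over all 6 libraries. Single-library ratios used CPM with 1 added and a minimum of 5 CPM on either side. Lengths came from GENCODE 29 and matched 89.3% of symbols and all 44 members. Promoter windows came from RefSeq (GRCh38.p14), a later build than that of the counts. The edgeR step was tested on simulated data.

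Named by rule were the 3 proteolytic subunits, PSMA8, up to 4 called members of each of 8 roles by largest change, the 3 highest and 3 lowest members of each single-library ratio, LMO1, MYCN, PSMB8, PSMB9, PSMB10, POMP, NFE2L1, NFE2L2, and up to 4 called genes of each of 7 pathway lists by lowest adjusted p. Some genes that this rule names are not reported here. A library's count of 0 allows up to 3 counts, and intervals and floors cover counting error only. DESeq2 1.42.0, limma-voom (limma 3.58.1), other scalings and filters, all 6 libraries, a replicate block and leaving out each library were tried as alternatives.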

Additional observations from a re-analysis of the deposited data

How the results depend on the processing

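The median log2 fold change of the proteasome genes with LMO1 stayed negative in all 12 alternatives, from -0.14 to -0.08. Counts of lower members ran from 11 to 17, with 11 to 15 when a library was left out (lowest without vector replicate 2, where PSMA1, PSMB5, PSMC4, PSME3, PSME4 and PSMG1 were lost), and DESeq2 gave 12. Members called higher numbered 2 with total counts only, where 2735 genes of the whole table were higher. They numbered 2 with a filter of 5 CPM in 2 libraries, where 2166 genes were higher, and 0 in the other fits with both libraries of each group. DESeq2 called 2970 genes over the whole table, against 4797, and 24 of the pathway genes, against 38. With the replicate number as a block 17 members were lower, all 17 shared with the fit without it. Replicate numbers do not pair the libraries by the labels, and same-numbered deviations correlated at -0.02 over genes.

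In Kelly against parental cells a 2-fold limit left 2 lower and 0 higher members. In parental cells against vector it left 0 lower. Median-ratio size factors gave 13 members at least 1.5-fold lower, without a share of all genes to set beside it. Summed levels with median-ratio size factors were 5647 CPM for vector, 4388 CPM for parental and 3878 CPM for Kelly, and with total counts 4399 CPM for parental. Medians per length were 166 (20S) and 77.6 (19S) CPM per kb with coding length and 105 for the 20S core with the longest coding transcript, a length added after the data were seen. The cause of these shifts was not tested beyond the change of setting itself. With 2 libraries a group and 1 on the other sides, small differences between subunits in the single libraries have no replicate check.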
